A study of Mus musculus with 4 samples.

Results

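The genes described here encode the proteins of tight junctions and gap junctions in lung endothelial cells (ECs) isolated after pneumonectomy (PNX) or sham operation. They were chosen by symbol, as the claudins (Cldn followed by digits only), the connexins of the Gja, Gjb and Gjc classes, and 11 further tight junction genes listed by name. The choice gave 52 genes of the 24063 symbols in the tables, namely 25 claudins, 11 other tight junction genes and 16 connexins. The rule used symbols only, but it was set with earlier results of these data known.

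Tight junctions seal the cleft between neighbouring cells. Claudins form the strands that set which ions and solutes pass through the cleft, occludin and its relatives shape the strands, the junctional adhesion molecules hold the membranes together, and cytoplasmic scaffold proteins tie the strands to actin. Gap junctions are channels made of connexins that let ions and small molecules pass directly from cell to cell, and in vessels they carry electrical signals along the wall. In the lung, endothelial junctions limit the leak of plasma and alveolar epithelial junctions keep fluid out of the airspace, and the sets of claudins and connexins of these layers differ.

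Both groups were C57BL6 mice that were 8 weeks old. The post-PNX ECs were taken 7 days after left pneumonectomy, an operation after which the remaining lobes grow, and the control ECs came from sham-operated lungs. ECs were collected with magnetic beads carrying an antibody to CD31, a protein of the EC surface, and each group had 2 libraries, each pooled from 2 mice. With the transcript of most counts taken for each symbol, the libraries held 50952879 and 45261208 counts in sham and 46783725 and 41367438 after PNX. Values of the 2 libraries of a group are always given in this order, replicate 1 before replicate 2.

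The libraries did not match their labels in every respect, which concerns all results. The mice were labelled male, but no count fell on any of 44 chromosome Y genes, and Xist, which is transcribed from an inactive X chromosome, had between 29890 and 36875 counts per library. The samples were labelled endothelial cells, and all 12 endothelial markers were abundant (Pecam1, the gene of CD31, had 90776 and 91116 normalized counts in sham and 90191 and 90608 after PNX). Sftpc, the surfactant protein gene that defines alveolar type 2 epithelium, had 171272 and 170757 normalized counts in sham and 111404 and 110651 after PNX, more than Pecam1 in each library. The values below are therefore those of a CD31-selected fraction that also held epithelial RNA. In such bulk samples fewer cells of a type and less RNA per cell cannot be told apart.

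The comparison of post-PNX with sham libraries was tested in 37 of the 52 genes, those that passed a filter on low counts, with edgeR's quasi-likelihood test and Benjamini-Hochberg adjustment over all 16208 genes tested. At an adjusted p under 0.01, 10 of the 37 genes were higher after PNX, where 29.3% of all genes tested were higher, and 15 were lower, where 27.8% of all genes were lower. The other 12 did not pass. With a log2 fold change beyond 1 as well, 4 genes were higher, Gjb5 and Cldn2 among them, against 5.90% of all genes, and 2 were lower (Cldn8 and Cldn11), against 1.66%. These 6 became 3 without sham 2 or without post-PNX 2, with Cldn2, Cldn8 and Cldn11 lost. The libraries of the groups did not overlap in 34 of the 37 genes, which is also the case in 81.2% of all genes tested. The log2 fold change had a median of -0.18 over the 37 genes and 0.00 over all genes, and scaling to the 12 endothelial markers, which moved the median of all genes to 0.29, turned the median of the 37 genes to 0.11. By group the medians were -0.22 for the claudins, -0.22 for the other tight junction genes and 0.41 for the connexins, and with endothelial scaling they were 0.07, 0.07 and 0.70.

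**Figure D1:**
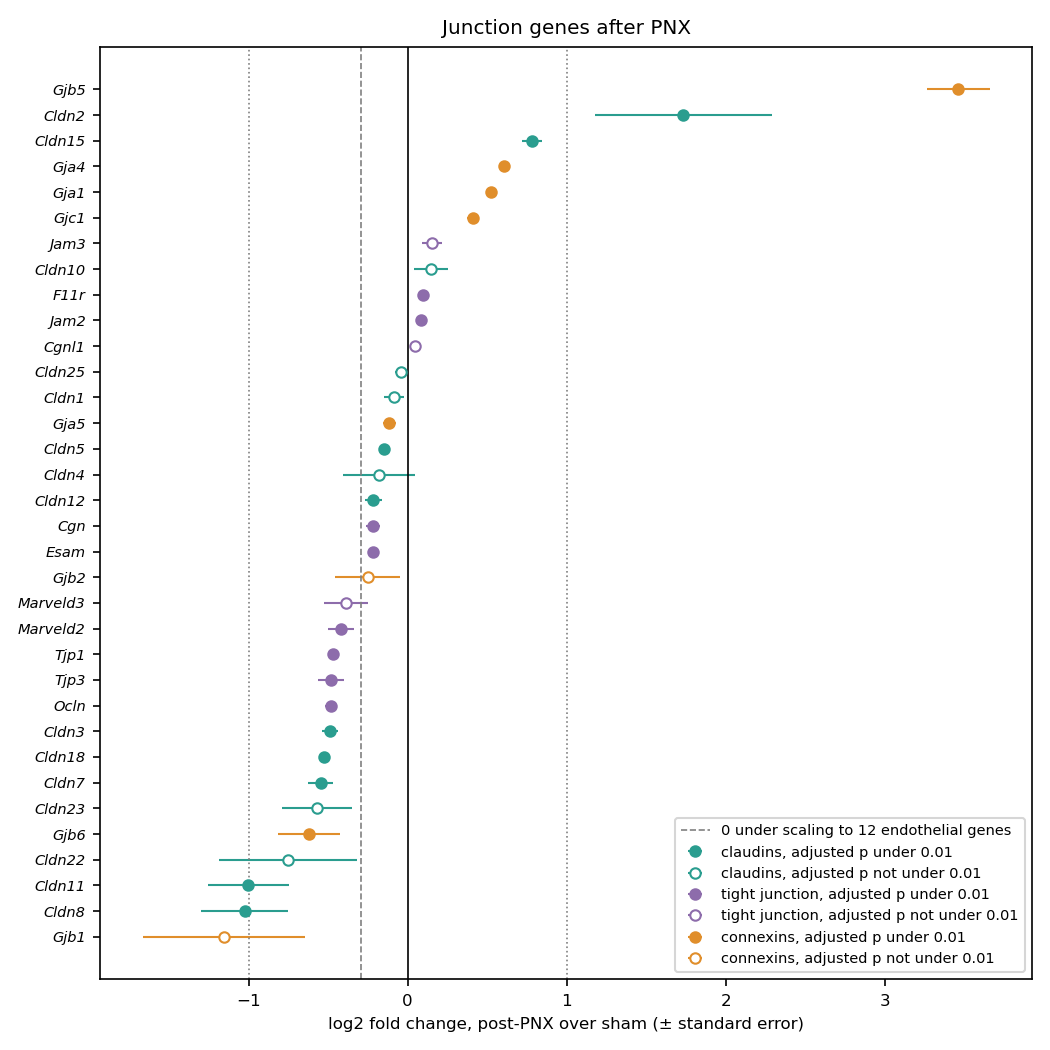
Log2 fold change of post-PNX over sham libraries with its standard error for 34 of the 37 junction genes tested (2 libraries per group), with filled points for an adjusted p under 0.01 and dotted lines at -1 and 1. The dashed line is where 0 would lie with scaling to 12 endothelial marker genes, a shift of the median of all genes to 0.29. Gjb5 stands apart on the right at 3.46, and Gja4, the most abundant connexin, lies at 0.61.

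The junction transcripts were dominated by few genes. On the scale of TPM (a share of all transcripts, deposited by the authors), which divides by transcript length and so allows genes to be compared, Cldn5 was first with a mean level of 944 over the 4 libraries, followed by Esam at 405, F11r at 152, Tjp1 at 143, Gja4 at 131 and Cldn18 at 119.6. Jam2, Cldn25, Gja1, Cgnl1, Cldn3 and Ocln came next, between 29.4 and 59.5. Cldn5 made up 78.7% and 78.9% of the summed claudin TPM in sham and 80.6% and 80.97% after PNX. The summed TPM of the claudins was 1262 and 1285 in sham and 1099 and 1092 after PNX, that of the 11 other tight junction genes was 917 and 919.9 in sham and 796 and 788 after PNX, and that of the connexins was 181 and 184 in sham and 257 and 253 after PNX. The claudin and tight junction sums were thus lower and the connexin sum higher in both post-PNX libraries on this scale, whereas with endothelial scaling the median log2 fold changes of claudins and tight junction genes were above 0.

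**Figure D2:**
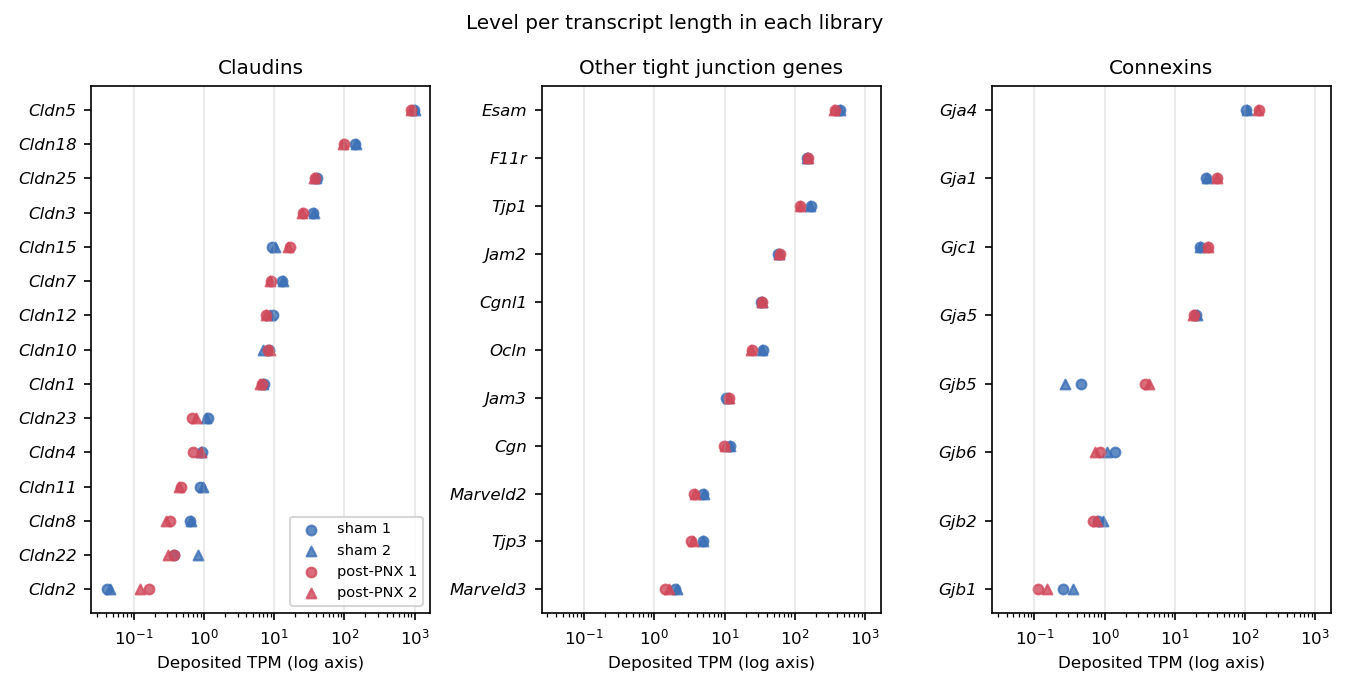
Deposited TPM on a log axis for 34 of the 37 genes tested, with 1 point per library (circles and triangles for replicates 1 and 2, blue for sham and red for post-PNX). Cldn5, with a mean of 944 TPM, lies far above the other claudins, and Gjb5 shows the widest gap between the groups.

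Cldn5, at chr16:18776847-18778262 of mm10, encodes the main claudin of endothelium and limits the passage of small molecules across vessel walls. It had 40523 and 41431 normalized counts in sham and 37013 and 36981 after PNX. The libraries of each group lay within a narrow range and the groups did not overlap. Cldn5 fell by a small step (log2 fold change -0.15, standard error 0.0173, adjusted p = 3.74e-11), while its log2 fold change was 0.14 with scaling to endothelial markers. The adhesion molecule of endothelial tight junctions, Esam, had 23476 and 23651 normalized counts in sham and 20413 and 20061 after PNX, values that did not overlap, and it fell (log2 fold change -0.22, standard error 0.0187, adjusted p = 4.06e-16) except with endothelial scaling, which gave 0.0714.

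Cldn18, Cldn3 and Cldn7, claudins found in lung epithelium, were lower after PNX. Cldn18, at chr9:99690796-99717267, encodes the claudin that is characteristic of alveolar epithelium and was the claudin with the next highest level after Cldn5. It had 11544 and 11855 normalized counts in sham and 8261 and 8003 after PNX, with all post-PNX values below all sham values, and fell (log2 fold change -0.52, standard error 0.0223, adjusted p = 5.82e-30). Its share of the claudin TPM was 11.1% and 11.2% in sham and 8.94% and 8.71% after PNX. The 4 transcripts of Cldn18 in the tables share most reads, so its isoforms were not resolved.

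Cldn3, a sealing claudin of many epithelia, had 1296 and 1351 normalized counts in sham and 948 and 937 after PNX and fell (log2 fold change -0.49, standard error 0.0484, adjusted p = 1.27e-13). Cldn7, found along epithelial membranes, fell from 499 ± 8.33 in sham to 340.4 ± 11.9 (SD, n = 2 each) normalized counts (log2 fold change -0.55). Cldn18, Cldn3 and Cldn7 also had an adjusted p under 0.01 and a negative log2 fold change with endothelial scaling, at -0.23, -0.20 and -0.26. Cldn4, another sealing claudin of epithelium, had between 37.3 and 48.9 normalized counts per library, with overlapping groups, and did not pass (log2 fold change -0.18, 95% interval -0.63 to 0.27).

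Of the claudins that form ion channels between cells, a pair rose. Cldn15, a cation pore best known from the intestine, had 500.1 and 550.5 normalized counts in sham and 927 and 871 after PNX, values that did not overlap, and rose 1.72-fold (log2 fold change 0.78, standard error 0.0617, adjusted p = 1.91e-17). Its share of the claudin TPM was 0.743% and 0.802% in sham and 1.54% and 1.46% after PNX. Cldn2, which forms a channel for cations and water in leaky epithelia, was near the floor of detection, with 4 and 4 counts in sham and 15 and 10 after PNX. It passed both thresholds (log2 fold change 1.73, standard error 0.556, adjusted p = 0.00517), but without any of the 4 libraries in turn its adjusted p was between 0.0238 and 0.122, and it was 0.0137 without a filter on low counts and 0.0128 with transcripts summed. Cldn10, whose isoforms form pores for cations or anions, had 231 and 189 normalized counts in sham and 226 and 242 after PNX, with overlapping groups (log2 fold change 0.15).

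Cldn8 and Cldn11 were the claudins with the largest falls that passed. Cldn8, best known from the distal nephron, had 42.6 and 44.9 normalized counts in sham and 22.6 and 20.1 after PNX (log2 fold change -1.02, standard error 0.273, adjusted p = 8.66e-04). Cldn11, the claudin of myelin and of Sertoli cells, had 48.0 and 53.0 normalized counts in sham and 25.5 and 24.5 after PNX (log2 fold change -1.004, standard error 0.254, adjusted p = 4.68e-04). The groups did not overlap, and the levels after PNX were 0.492 and 0.499 times those in sham. Neither had an adjusted p under 0.01 in DESeq2's Wald test or with endothelial scaling, which gave -0.73 and -0.71. Without sham 2 or without post-PNX 2 their log2 fold changes were between -0.99 and -0.93, short of the threshold of 1, and the adjusted p of Cldn8 was 0.0195 without post-PNX 2.

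Among the remaining claudins, the gene that the tables call Cldn25 had 2561 and 2457 normalized counts in sham and 2475 and 2393 after PNX, overlapping values with no call (log2 fold change -0.0437, 95% interval -0.11 to 0.0244). By its transcript and position at chr16:58727910-58734247 it is the gene that RefSeq now names Cldnd1, a relative of the claudins. The symbol Cldn26 belongs likewise to Tmem114. Both were kept among the claudins by symbol, so the claudin counts, sums and shares include them. Cldn12 fell from 1001 ± 54.9 in sham to 863 ± 0.252 (SD, n = 2 each) normalized counts, with a log2 fold change of -0.22 that became 0.0729 with endothelial scaling and had an adjusted p of 0.0320 without sham 1 and of 0.0217 in DESeq2's Wald test. Cldn1, which is needed for the barrier of the skin, did not pass (log2 fold change -0.0875), nor did the low Cldn23 (-0.57) and Cldn22 (-0.75).

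Of the 3 genes of the occludin family of strand proteins, Ocln and Marveld2 fell. Ocln, the gene of occludin at chr13:100496504-100552718, had 3253 and 3115 normalized counts in sham and 2295 and 2257 after PNX. The post-PNX values lay below the sham values by more than the spread of either group, and Ocln fell (log2 fold change -0.48, standard error 0.0335, adjusted p = 6.28e-20). Marveld2, which encodes tricellulin of the corners where several cells meet, fell from 448 ± 10.9 in sham to 335 ± 9.80 (SD, n = 2 each) normalized counts (log2 fold change -0.42, -0.13 and no call with endothelial scaling). Marveld3, the third member of this family, had 139 and 149 normalized counts in sham and 102 and 118 after PNX and missed the threshold (log2 fold change -0.39, standard error 0.139, adjusted p = 0.0123).

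Of the junctional adhesion molecules, F11r and Jam2 were higher. F11r, the gene of JAM-A, which helps to place polarity proteins at the junction and is found in endothelium, epithelium and platelets, had 10592 and 10630 normalized counts in sham and 11397 and 11335 after PNX. It rose slightly (log2 fold change 0.10, standard error 0.0211, adjusted p = 3.89e-05). Jam2, the JAM of endothelium that binds leukocytes, had 8005 and 8231 normalized counts in sham and 8688 and 8538 after PNX and also rose slightly (log2 fold change 0.0862, standard error 0.0229, adjusted p = 8.07e-04), but its adjusted p was 0.0220 in DESeq2's Wald test, 0.0272 without sham 1 and 0.0263 without post-PNX 1. Jam3, its binding partner, did not pass (log2 fold change 0.16, adjusted p = 0.0255). As shares of the TPM of the 11 genes, F11r made up 16.2% and 16.1% in sham and 19.5% and 19.6% after PNX.

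Of the scaffold genes, Tjp1 was among the most abundant junction genes. Tjp1, at chr7:65296165-65527850, encodes the zonula occludens protein that links claudins, occludin and JAMs to actin, in endothelium and epithelium alike. It had 34375 and 34010 normalized counts in sham and 24717 and 24650 after PNX, with a gap between the groups many times wider than the spread within either, and fell (log2 fold change -0.47, standard error 0.0178, adjusted p = 1.28e-32). Its share of the TPM of the 11 genes was 18.4% and 18.2% in sham and 14.9% and 15.01% after PNX. Its log2 fold change was still negative, at -0.18, with endothelial scaling. Tjp3, an epithelial relative, fell from 432 ± 3.38 in sham to 309.9 ± 17.2 (SD, n = 2 each) normalized counts (log2 fold change -0.48, -0.19 and no call with endothelial scaling).

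Cgn and Cgnl1 encode cingulin and paracingulin, which bind the scaffold and regulate small GTPases at the junction. Cgnl1, the higher of the pair on the TPM scale at 33.7 against 10.9, had 6407 and 6690 normalized counts in sham and 6739 and 6773 after PNX and did not pass (log2 fold change 0.0458, standard error 0.0247, adjusted p = 0.0985, 95% interval of the log2 fold change -0.00272 to 0.0942). Cgn, which is typical of epithelium, fell from 1728 ± 18.8 in sham to 1488 ± 63.4 (SD, n = 2 each) normalized counts, with a log2 fold change of -0.22 that became 0.0727 with endothelial scaling.

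Of the 11 connexins tested, 6 were higher, where 29.3% of all genes tested were higher, 2 were lower, where 27.8% of all genes were lower, and 3 did not pass. The connexins of vessels gave most of the transcripts. Gja4, at chr4:127311420-127314039, encodes a connexin of arterial and capillary endothelium. It had 5079 and 5126 normalized counts in sham and 7870 and 7680 after PNX, so both post-PNX libraries lay far above both sham libraries, and it rose 1.52-fold (log2 fold change 0.61, standard error 0.0247, adjusted p = 4.70e-31). It made up 57.7% and 57.4% of the connexin TPM in sham and 61.5% and 60.9% after PNX.

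Gja1, the most widely expressed connexin and present in endothelium, smooth muscle, fibroblasts and epithelium, had 2507 and 2599 normalized counts in sham and 3667 and 3672 after PNX and rose 1.44-fold (log2 fold change 0.52, standard error 0.0316, adjusted p = 1.26e-22). Gjc1, a connexin of smooth muscle and of the cardiac conduction system, rose from 1668 ± 10.1 in sham to 2217 ± 29.1 (SD, n = 2 each) normalized counts, or 1.33-fold (log2 fold change 0.41). Gja5, which with Gja4 forms the channels of arterial endothelium, had 1837 and 1900 normalized counts in sham and 1747 and 1700 after PNX, a small fall that passed narrowly (log2 fold change -0.11, standard error 0.0394, adjusted p = 0.00907) and that turned to 0.18 with endothelial scaling. Without sham 2, post-PNX 1 or post-PNX 2 its adjusted p was 0.0823, 0.0192 and 0.0905, and it was 0.0979 in DESeq2's Wald test, 0.0115 with scaling by library size alone and 0.0104 where a mean of at least 50 counts was required. The share of Gja5 in the connexin TPM was 11.1% and 11.3% in sham and 7.24% and 7.15% after PNX.

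**Figure D3:**
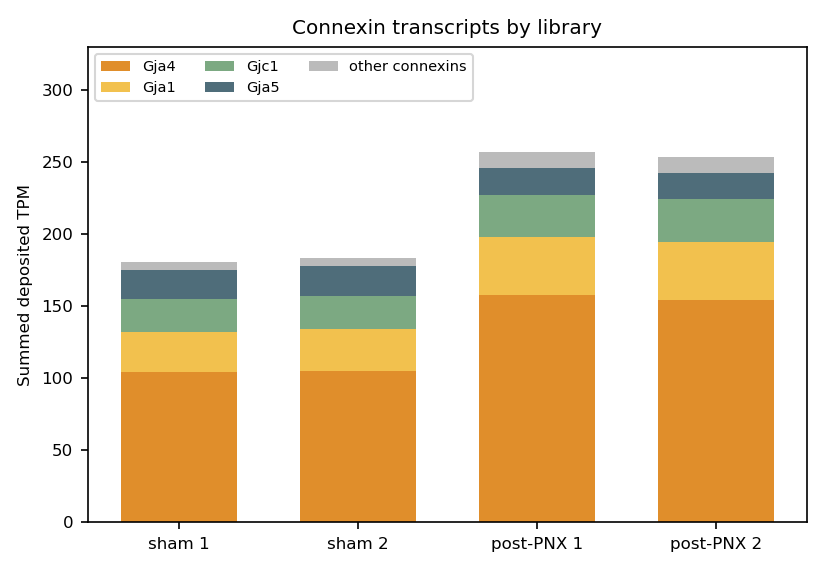
Summed deposited TPM of the 16 connexins in each library, with the parts contributed by Gja4, Gja1, Gjc1, Gja5 and the other connexins. The sum was 181 and 184 in sham 1 and 2 and 257 and 253 in post-PNX 1 and 2, Gja4 forms the tallest part of each bar, and the Gja5 part is slightly shorter after PNX on this scale.

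The largest rise among the 37 genes was that of Gjb5, a connexin known from skin and placenta. Gjb5, at chr4:127354809-127358164, had 22.6 and 13.3 normalized counts in sham and 191 and 215 after PNX and rose 11.03-fold (log2 fold change 3.46, standard error 0.198, adjusted p = 9.41e-24). Both post-PNX values were more than 4 times the higher sham value. Gjb5 passed both thresholds under every alternative. Its level stayed low, with a mean TPM after PNX of 4.03 against 156 for Gja4.

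**Figure D4:**
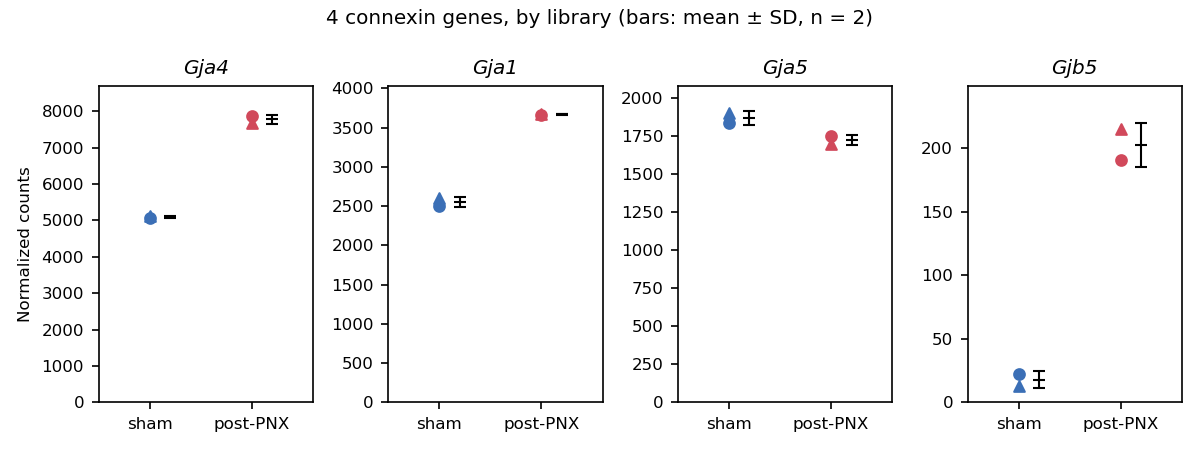
Normalized counts of Gja4, Gja1, Gja5 and Gjb5 by library, with the mean ± SD of the 2 libraries per group (circles and triangles for replicates 1 and 2, each panel with its own axis from 0). The post-PNX points of Gja4, Gja1 and Gjb5 lie above the sham points, those of Gja5 lie slightly below them, an order that scaling to endothelial markers turned (log2 fold change 0.18), and the Gjb5 sham points are close to 0.

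The stretches just upstream of Gja4 and Gjb5 are printed here because these were the most abundant connexin and the connexin with the largest rise. They are the 250 bases before the start of Gja4 (chr4:127314040-127314289, minus strand) and of Gjb5 (chr4:127358165-127358414, minus strand), from RefSeq's promoter table for GRCm38.p6, the assembly of mm10. They are written 5' to 3' towards the gene, with matches to the searched motifs in capitals.
Gja4: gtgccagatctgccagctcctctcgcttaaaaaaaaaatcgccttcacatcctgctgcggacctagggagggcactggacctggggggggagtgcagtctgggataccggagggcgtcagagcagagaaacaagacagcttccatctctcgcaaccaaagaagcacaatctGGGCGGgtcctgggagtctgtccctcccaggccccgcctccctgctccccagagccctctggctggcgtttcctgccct
Gjb5: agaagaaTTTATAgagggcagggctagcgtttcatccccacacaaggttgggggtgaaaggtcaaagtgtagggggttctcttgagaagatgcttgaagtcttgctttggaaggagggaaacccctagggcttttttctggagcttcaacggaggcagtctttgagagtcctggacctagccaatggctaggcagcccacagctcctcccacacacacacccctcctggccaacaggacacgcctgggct
Searched on both strands were a TEAD motif (GGAATG), an AP-1 motif (TGANTCA), a GC box (GGGCGG), an ETS motif (CGGAAG) and a TATA box (TATAAA). The TEAD and ETS motifs share the letters GGAA. In the Gja4 window the only match was a GC box 79 bases before the start. In the Gjb5 window it was the letters of the TATA box on the opposite strand, 243 bases before the start. Of all 32841 promoters of the same length, 32.7% held the GC box, 12.4% the TATA box, 12.6% the TEAD motif, 6.75% the AP-1 motif and 13.6% the ETS motif. The table held 52 promoters for 37 of the junction gene symbols, and 24 of these promoters held the GC box, 7 the TATA box, 5 the TEAD motif, 4 the AP-1 motif and 7 the ETS motif. The TEAD matches were upstream of Cldn15, Cldn16, Cldn2, Cldn7 and Gjb1, and the AP-1 matches upstream of Cldn15, Cldn4, F11r and Gja1.

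Gjb1, Gjb2 and Gjb6 were not among the connexins that rose. Gjb2 and Gjb6, neighbours on chromosome 14 and known from the inner ear and skin, were both low. Gjb2 had 56.2 and 66.3 normalized counts in sham and 48.1 and 54.6 after PNX and did not pass (log2 fold change -0.25). Gjb6 had 87.9 and 68.3 normalized counts in sham and 55.0 and 46.8 after PNX and passed (log2 fold change -0.62, standard error 0.196, adjusted p = 0.00467), but not with endothelial scaling, DESeq2's Wald test or without sham 1, post-PNX 1 or post-PNX 2, where its adjusted p was 0.132, 0.0110 and 0.0630. Gjb1, the connexin of liver and Schwann cells, had between 5 and 15 counts per library and did not pass (log2 fold change -1.16).

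The other 15 genes were too low to test. Cldn14, Cldn16, Cldn17, Gja3 and Gja10 had 0 counts in every library, which allows a level of up to 0.0589 to 0.0725 CPM, the counts scaled to the library total (3 counts per library, covering counting error only). Cldn6, Cldn9, Cldn24, Cldn26 and Gjc3 reached at most 2 counts, and Cldn13, Cldn19 and Cldn20 at most 6. Gja6 had 16, 9, 7 and 3 counts in sham 1, sham 2, post-PNX 1 and post-PNX 2. Of the genes named here, Cldn3, Cldn10, Cldn19, Cldn20, Cgn, Cgnl1, Gja5, Gja6, Gjb2, Jam2, Jam3, Marveld2, Ocln and Tjp3 overlap other annotated genes, whose reads the counts may include. Cldn14, with 0 counts, overlaps another gene as well.

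The partners of these proteins were described with 4 further lists, in which 37 of the 41 genes tested had an adjusted p under 0.01, 9 higher and 28 lower, against 29.3% and 27.8% of all genes. Of 21 plaque and polarity genes, which position the junction along the cell side, 16 were lower and 3 higher, with a median log2 fold change of -0.23 that became 0.06 with endothelial scaling. The largest changes that passed were those of Crb3 (-0.55), Inadl (-0.53) and Pard6b (-0.48), all members of apical polarity complexes. Of 12 adherens junction partners 9 were lower and 1 higher, with a median of -0.17 that became 0.12 with endothelial scaling. Cdh5, the gene of VE-cadherin, changed by -0.22 (0.0698 with endothelial scaling), and Pecam1 did not pass at -0.00869 (0.28). Cdh5, Pecam1 and Ptprb are among the 12 endothelial markers, so their values under that scaling are tied to it. Ptprb, the phosphatase that binds VE-cadherin, had 112326 and 112474 normalized counts in sham and 68570 and 67287 after PNX and fell (log2 fold change -0.73, standard error 0.0157, adjusted p = 1.41e-45, and -0.44 with endothelial scaling). Jup, the gene of plakoglobin, fell (-0.38), and Pvrl2, the gene of the adhesion molecule nectin-2, rose (0.64).

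Among 7 tested genes of other tight junction membrane proteins 4 were higher and 3 lower, with a median of 0.14. Ildr2, of the angulin family that marks corners between cells, had 336 and 359.8 normalized counts in sham and 1742 and 1754 after PNX and rose 5.03-fold (log2 fold change 2.33, standard error 0.0566, adjusted p = 7.26e-43), while its relative Ildr1 fell (log2 fold change -0.44, with an adjusted p of 0.0280 in DESeq2's Wald test and 0.214 with endothelial scaling) and Clmp, an adhesion molecule related to the coxsackievirus receptor, rose (0.77). Of 7 other connexins and pannexins only Panx1, which forms channels that release ATP, was high enough to test. It had 323 and 313 normalized counts in sham and 526 and 537 after PNX and rose 1.67-fold (log2 fold change 0.74, standard error 0.0770, adjusted p = 7.89e-13). Gjd2, Gjd4, Gje1 and Panx3 had at most 3 counts in every library.

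Marker lists of other cell types moved along with several of these groups. All 5 alveolar type 1 markers were lower, with a summed level of 73991 and 74615 normalized counts in sham and 50979 and 51628 after PNX, and all 7 alveolar type 2 markers were lower, with sums of 336400 and 337434 in sham and 220243 and 218599 after PNX. Their median log2 fold changes were -0.67 and -0.62, beside -0.52 for Cldn18, -0.49 for Cldn3 and -0.48 for Ocln. The 4 club cell and the 4 ciliated cell markers were all lower too, with medians of -1.15 and -0.89, and with endothelial scaling the medians of these 4 lists stayed between -0.86 and -0.33. The 7 pan-epithelial markers were divided, with 3 higher, 2 lower and a median of 0.09 (sums of 22477 and 22606 in sham and 22742 and 23549 after PNX). None of these epithelial markers was at 0, and their part in the lower epithelial claudins was not tested.

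Beside the higher connexins, all 6 mesothelial markers were higher (sums of 7352 and 7470 in sham, 19302 and 19489 after PNX, median log2 fold change 1.21). Of 6 fibroblast markers 4 were higher, 1 was lower and 1 did not pass (sums of 43226 and 43757 in sham, 135306 and 136500 after PNX, median 2.19, range -0.23 to 4.26). Of 7 mural markers 6 were higher (sums of 22180.5 and 22499 in sham, 30097 and 29872 after PNX, median 0.46). All 5 macrophage markers tested were higher (median 0.83). Of the 3 basal cell markers, Krt14 had 16.3 and 28.5 normalized counts in sham and 259 and 259.6 after PNX and rose, Krt5 fell to 3.93 and 4.46, and Trp63 did not pass, with between 17.2 and 26.5. The part of these cell types in the rise of Gja1, Gjc1, Cldn15 and Gjb5 was not tested.

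Of the 12 endothelial markers 9 were lower and 1 higher, with sums of 607775 and 612866 in sham and 481155 and 481842 after PNX and a median of -0.34 (-0.05 with scaling to these same genes), below the -0.15 of Cldn5 and the -0.22 of Esam. The log2 fold changes of the 12 markers ranged from -0.73 (Ptprb) to 0.11. The size of the shift under endothelial scaling therefore depends on which markers are used. Of 7 arterial markers 5 were lower and 2 higher (sums of 75555 and 75587 in sham, 63304 and 64043 after PNX, median -0.24, or 0.05 with endothelial scaling), beside 0.61 for Gja4 and -0.11 for Gja5, and all 5 general capillary markers were lower (median -0.45, or -0.16 with endothelial scaling). The venous, aerocyte and lymphatic lists were divided, with 3 higher and 2 lower of 5, 3 and 3 of 6, and 1 and 1 of 4, the lymphatic marker Ccl21a having at most 1 count. The 3 T cell and 3 B cell markers were lower (medians -0.77 and -0.84), and so were 2 of 3 Schwann cell markers (median -0.51). Mast cell markers were higher in 3 of 4 (median 1.48), and of 4 cardiac muscle markers 1 was higher, with sums between 77.9 and 98.9. Among 3 adipocyte markers tested 2 were higher and 1 was lower (Lep was not tested). The adipocyte sums were 1094 and 1052 in sham and 1059 and 1055 after PNX. The part of these lists in the changes of the vascular junction genes was not tested.

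**Figure D5:**
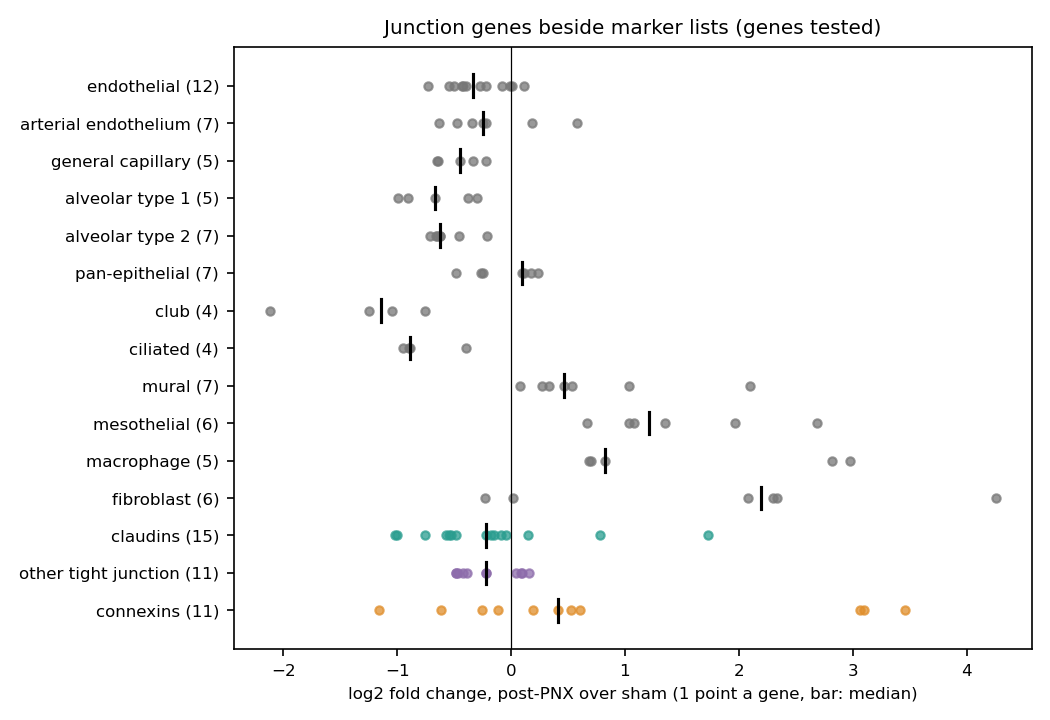
Log2 fold changes of the genes tested in 12 marker lists and in the 3 groups of junction genes, with 1 point per gene, a bar at the median and the number of genes in brackets. The claudin and tight junction medians, both -0.22, lie between 0 and the endothelial median of -0.34, and the alveolar type 1 and type 2 medians are lower at -0.67 and -0.62. The connexin median is 0.41 in a range from -1.16 to 3.46, and medians shift by about 0.29 under endothelial scaling.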

How the data were processed

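Lung ECs were isolated with anti-CD31 beads, and stranded libraries of polyadenylated RNA were sequenced as paired ends. The submitters' processing notes name STAR and mm10, and the counting program and its strand setting are not given in the sources used here. The authors deposited, for each library, whole-number read counts on 33068 RefSeq transcripts without normalization. The authors also deposited TPM values (scaled to transcript length and to a fixed total over all transcripts) and FPKM values (scaled to length and library total), of which TPM served to compare levels between genes and to give sums and shares per library, with no test, and FPKM was not used.

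Reads shared by transcripts of a gene were counted on each of them. For each symbol, only the transcript whose counts summed highest over the 4 libraries was therefore kept. The analysis used edgeR 4.0.16 in R 4.3.3, with filterByExpr and with TMM factors that lay between 0.9985 and 1.0026. The groups were compared by the quasi-likelihood F test without covariates, on all 16208 genes that passed the filter, with Benjamini-Hochberg adjustment over them. Thresholds were an adjusted p under 0.01 and a log2 fold change beyond 1, as in the study's methods. Normalized counts are the counts brought to the mean TMM-adjusted library size. The 52 genes, the marker lists and the tests were chosen with earlier results of these data known. Values of every library were planned for genes past both thresholds and for the 12 with the highest mean TPM. Those of Cldn15, Cldn10, Marveld3, Gja5, Gja6, Gjb2 and Gjb6 were added after they were seen. Of each list of partner genes the 3 largest changes were named, with Cdh5 and Pecam1. Single genes of the marker lists were named after their values were seen.

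Between libraries of a group the mean chi-square per gene was 1.74 in sham and 1.51 after PNX, against 128 between sham 1 and post-PNX 1, and the median SD was 0.045 on the log2 scale. Counting error alone would give a mean chi-square of about 1. The adjusted p-values are thus set against a spread close to counting error, and how far it covers differences between mice was not tested. On simulated counts for 16208 genes the test recovered 100 of 100 genes changed 4-fold and 97 of 100 changed 1.5-fold, and called 1 of 16008 others. Only 200 genes were changed there, whereas 4745 were higher and 4513 lower in the data. The recovery on simulated counts cannot be carried over to low genes such as Cldn2, Cldn8 and Cldn11, for which it was not tested. Alternatives tried were scaling by library size only, by DESeq2's size factors or by 12 endothelial markers, a filter at a mean of 50 counts or none, DESeq2 1.42.0 (Wald test), glmTreat, summing the transcripts of a symbol, a block for the replicate number, and leaving out each library in turn. Coordinates are those of RefSeq on mm10. Some of the genes are not reported by name here, though they are included in the counts, sums and medians.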

Additional observations from a re-analysis of the deposited data

How the results depend on the processing

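Scaling to the 12 endothelial markers had the widest effect. The genes past the adjusted p became 19 higher and 5 lower (Cldn18, Cldn3, Cldn7, Ocln and Tjp1), against 10 and 15, in a setting where the share of higher genes among all genes called went from 51.3% to 89.2%. The median over the junction genes tested became 0.11, against -0.18. The log2 fold changes that turned positive were 0.073 for Cgn and Cldn12, 0.071 for Esam, 0.070 for Cdh5, 0.20 for Cldn1, 0.25 for Cldn25, 0.11 for Cldn4, 0.14 for Cldn5, 0.18 for Gja5, 0.038 for Gjb2 and 0.28 for Pecam1. Cldn4 also turned without post-PNX 1, and its values with each library left out lay between -0.36 and 0.000177. The setting adds about 0.29 to every gene. That size rests on 12 markers whose own log2 fold changes ranged from -0.73 to 0.11. Cdh5 and Pecam1 are among these markers.

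The 6 genes past both thresholds became 3 in DESeq2's Wald test, in which Cldn2 had no adjusted p, and 3 in glmTreat, in each case with Gjb5 kept and Cldn2, Cldn8 and Cldn11 lost, and 1 (Gjb5) where a mean of at least 50 counts was required, since the other 5 were then not tested. With each library left out in turn they were 3 to 5. The junction genes past the adjusted p were then 8 to 9 higher and 12 to 14 lower, the median was between -0.21 and -0.13, and the partner genes that passed numbered 33 to 35, against 37. No other alternative moved these counts by more than 1.5 times.

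The libraries share the replicate numbers 1 and 2 but come from different mice, and the deviations of same-numbered libraries from their group means had a correlation of 0.020 over 14299 genes. With the replicate number as a block, 10 junction genes were higher and 16 lower, Marveld3 being the addition, and 6 passed both thresholds.

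Each group rests on 2 libraries, so the spread is estimated with the help of all genes, and the lone library that remains when its partner is left out is assumed to vary like the other group. Depth limits Cldn2, Cldn8, Cldn11, Gjb1 and the genes that were not tested.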
